A study of Mus musculus with 64 samples.

Results

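Dbp, Tef and Hlf, the 3 proline and acidic amino acid-rich (PAR) bZIP transcription factors of the circadian output, were read together with the repressors Nfil3, Bhlhe40 and Bhlhe41 in mouse microglia. The 6 genes were chosen by name from the 49671 genes of the count table, and all 6 were detected in each of the 64 libraries. Microglia of perfused adult male mice, C57BL/6 by the labels and of substrain C57BL6/N by the methods, were captured with CD11b magnetic beads, separately for hippocampus and frontal cortex. The labels name no genotype and no agent, and the methods give the same strain for all animals. Whether the conditions differed in treatment is not stated. Region, phase (Day or Night) and condition (Ctr0, Ctr1, Soci or Cogn) made 16 groups, each of 4 replicate libraries. The sources used here do not say what the 4 condition names stand for, so these are used as they stand. Day and Night were read as the light and the dark phase, which the paper sampled at ZT4 and ZT16 (zeitgeber time, hours after lights on). The methods state that the mice used for microglia lived under a reversed light-dark cycle. The library titles give Day or Night without a time, and this reading of them was not tested. CD11b also marks other myeloid cells, so the captured cells can hold border macrophages beside microglia.

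The mammalian clock is a loop in which CLOCK and BMAL1 (the product of Arntl) activate genes through E-box elements, and the PER and CRY proteins they induce switch them off again. Dbp, Tef and Hlf are driven by this loop and in turn activate genes through the D-box element. NFIL3, also known as E4BP4, binds the same D-box and represses. BHLHE40 and BHLHE41, also known as DEC1 and DEC2, bind E-boxes and repress the targets of CLOCK and BMAL1, and in macrophages BHLHE40 and BHLHE41 are also known as regulators of self-renewal.

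All positions are on GRCm38. Dbp lies on chromosome 7 at 45705088 to 45710203 on the plus strand, Tef on chromosome 15 at 81802421 to 81826863 on the plus strand, and Hlf on chromosome 11 at 90336536 to 90390895 on the minus strand. Nfil3 lies on chromosome 13 at 52967209 to 52981073 on the minus strand. Bhlhe40 and Bhlhe41 are both on chromosome 6, at 108660629 to 108666925 on the plus strand and at 145858243 to 145865558 on the minus strand. Each interval spans the whole GENCODE gene, exons and introns together, and the starts used next come from RefSeq, so that a window can reach into such an interval.

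The 250 bases before the RefSeq start of the genes that the results turn on are printed here, since E-boxes and D-boxes are the elements named above. They are RefSeq sequence of GRCm38.p6, 5′ to 3′ on the strand of the gene, and capitals mark an E-box (CACGTG) or a D-box (TTANGTAA on either strand). Tef has 2 RefSeq starts, both inside its GENCODE interval, and the windows of Dbp and Bhlhe41 also run into theirs. Per3, a clock gene outside the 6, is shown because its levels followed those of Tef.
Dbp, chr7:45704997-45705246, plus strand: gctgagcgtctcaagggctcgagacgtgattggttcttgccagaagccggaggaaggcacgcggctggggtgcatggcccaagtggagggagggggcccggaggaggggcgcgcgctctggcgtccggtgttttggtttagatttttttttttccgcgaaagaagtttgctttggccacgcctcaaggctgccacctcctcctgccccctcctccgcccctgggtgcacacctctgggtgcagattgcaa
Tef, chr15:81802423-81802672, plus strand: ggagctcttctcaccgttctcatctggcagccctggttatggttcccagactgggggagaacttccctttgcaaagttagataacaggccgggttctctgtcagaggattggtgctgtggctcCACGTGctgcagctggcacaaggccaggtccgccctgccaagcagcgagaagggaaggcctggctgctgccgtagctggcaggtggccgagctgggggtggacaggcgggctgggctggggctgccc
Tef, chr15:81811164-81811413, plus strand: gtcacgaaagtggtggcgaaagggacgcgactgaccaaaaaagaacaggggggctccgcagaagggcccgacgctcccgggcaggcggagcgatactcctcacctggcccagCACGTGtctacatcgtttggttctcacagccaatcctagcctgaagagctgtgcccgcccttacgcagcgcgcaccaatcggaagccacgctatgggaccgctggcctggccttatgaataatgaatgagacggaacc
Hlf, chr11:90390918-90391167, minus strand: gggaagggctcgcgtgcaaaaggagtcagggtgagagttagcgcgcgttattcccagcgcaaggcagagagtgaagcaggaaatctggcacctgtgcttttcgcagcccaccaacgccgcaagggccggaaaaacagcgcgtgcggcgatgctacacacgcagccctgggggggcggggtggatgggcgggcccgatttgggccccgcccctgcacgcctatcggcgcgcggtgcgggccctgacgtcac
Bhlhe41, chr6:145865421-145865670, minus strand: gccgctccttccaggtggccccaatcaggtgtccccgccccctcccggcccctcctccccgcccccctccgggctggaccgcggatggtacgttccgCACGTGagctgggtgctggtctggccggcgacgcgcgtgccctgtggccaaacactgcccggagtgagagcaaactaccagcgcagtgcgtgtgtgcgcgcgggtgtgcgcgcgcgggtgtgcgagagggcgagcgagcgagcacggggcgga
Per3, chr4:151044666-151044915, minus strand: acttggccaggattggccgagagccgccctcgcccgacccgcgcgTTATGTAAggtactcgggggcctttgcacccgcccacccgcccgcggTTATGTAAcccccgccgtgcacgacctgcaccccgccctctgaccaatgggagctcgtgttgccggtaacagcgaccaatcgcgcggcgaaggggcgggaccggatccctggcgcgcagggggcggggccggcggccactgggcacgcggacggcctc
Both Tef windows held 1 E-box, from base -127 to -122 and from base -138 to -133 of the start, and Bhlhe41 held 1 from base -153 to -148. Among 32851 windows of the same length, 6.02% held CACGTG. Neither the Dbp nor the Hlf window held this letter run or the related CACGTT on either strand, which 3.85% of windows held. Per3 held 2 copies of the D-box, from base -205 to -198 and from base -158 to -151, against 2.06% of windows with at least 1 match on either strand. The RefSeq table matched 5 of the 6 members, with 6 windows, and none of those windows held TTANGTAA. The half-site AGGTCA of the ROR and REV-ERB receptors, in 14% of windows on either strand, stood in the Nfil3 window from base -12 to -7 and in that of the receptor gene Nr1d2 from base -77 to -72. The window of Nr1d2, the gene most alike to Dbp over the group means, is not printed and held neither CACGTG nor TTANGTAA. A match of letters is a description of these windows and not evidence of binding.

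Hippocampal libraries held 11.6 M to 84.5 M counts (M, 1000000; median 17.6 M) and cortical libraries 10.2 M to 26.3 M (median 13.4 M). The smallest count of a member in any library was 10, for Nfil3, and the largest 14200, for Bhlhe41. A single transcript, Gm26917, took 19.2 to 52.2% of the counts of a library, so levels are given as counts per 1000000 (CPM) after trimmed-mean (TMM) scaling. The defining microglial genes were detected in every group, with a summed level of 11165 to 23451 CPM for 8 genes, against 99.5 to 457 CPM for 7 border macrophage genes. Library labels do not say whether replicates came from separate animals or pools, so p-values measure the spread between these libraries, which may be technical. In bulk RNA, fewer cells of a type and less RNA per cell cannot be told apart.

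Per kilobase of exon, Bhlhe41 was the most abundant member, with a median level of 19.1 CPM per kilobase over the 64 libraries. Tef followed at 9.49, Dbp at 3.46, Hlf at 3.08, Bhlhe40 at 1.55 and Nfil3 at 1.39 CPM per kilobase. Bhlhe41 and Tef thus stood well above the other 4 genes in these cells.

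The levels of Dbp in the 16 groups fell into 3 blocks. The 4 lowest group means were those of Soci and Cogn at night in both regions (6.85 to 7.23 CPM), the 4 highest those of Ctr0 and Ctr1 at night (12.9 to 16.7 CPM), and the 8 day groups lay between them (9.29 to 11.6 CPM). The lowest and highest group means differed 2.44-fold. Among the 15 neighbouring pairs in this order, 1 differed by more than the spread of both groups, hippocampus Day Ctr1 (11.6 ± 0.766 CPM, SD, n = 4) and hippocampus Night Ctr0 (12.9 ± 1.31). Tef was ordered by phase first. Its 4 lowest groups were Soci and Cogn at night (48.2 to 55.4 CPM), followed by the 4 night control groups (64.2 to 73.3 CPM) and then by all 8 day groups (77.4 to 87.6 CPM). Only the step from frontal cortex Night Cogn (55.4 ± 5.78 CPM) to hippocampus Night Ctr0 (64.2 ± 5.37) went beyond the spread of both groups, and no other step between neighbours did. Hlf was also lower in each of the 8 night groups (11.3 to 19.5 CPM) than in each of the 8 day groups (20.6 to 25.8 CPM). Its only step beyond the spread was from frontal cortex Night Soci (12.2 ± 0.756 CPM) to hippocampus Night Ctr1 (18.5 ± 1.59).

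**Figure D1:**
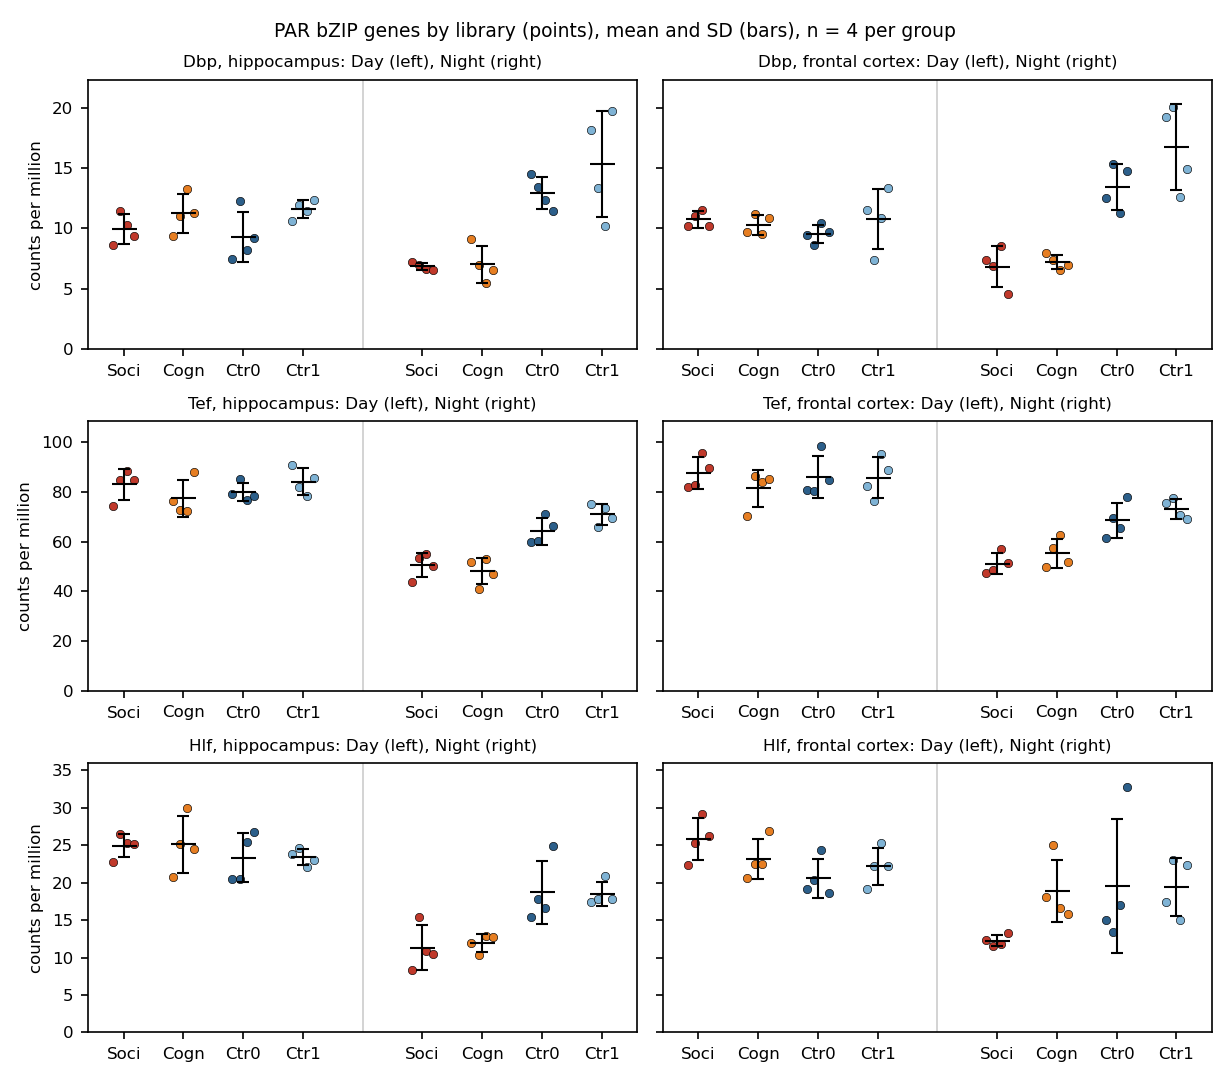
Levels of Dbp, Tef and Hlf in CPM (vertical axis, from 0) in each library (points), with the group mean and SD (bars, n = 4), for the 4 conditions by Day and Night in hippocampus (left) and frontal cortex (right). At night the Dbp points of Soci and Cogn lie between 4.56 and 9.10 and those of Ctr0 and Ctr1 between 10.2 and 20.1, while by day all conditions lie between 7.42 and 13.4.

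The first question was whether the 4 conditions differed at night. In the hippocampus, Dbp read 7.21, 6.96, 6.68 and 6.60 CPM in the 4 Soci libraries and 9.10, 6.96, 5.48 and 6.59 CPM in the 4 Cogn libraries. It read 14.5, 13.5, 12.3 and 11.5 CPM in Ctr0 and 18.1, 13.3, 10.2 and 19.7 CPM in Ctr1. Every Soci and Cogn library thus lay below every control library. In the frontal cortex, Dbp read 7.41, 6.89, 8.56 and 4.56 CPM in Soci and 7.97, 7.43, 6.54 and 6.98 CPM in Cogn. It read 12.5, 15.3, 11.2 and 14.7 CPM in Ctr0 and 19.2, 20.1, 12.6 and 14.9 CPM in Ctr1. Again no Soci or Cogn library reached the lowest control.

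Tested over the 4 conditions with edgeR's quasi-likelihood test and Benjamini-Hochberg adjustment over all genes, Dbp differed at night in hippocampus (adjusted p = 0.000486) and frontal cortex (adjusted p = 9.28e-05). Tef did too (adjusted p = 0.00163 and 0.0361), and Hlf in the hippocampus (adjusted p = 0.0312) but not in the cortex (adjusted p = 0.311). These were 3 of 6 members in hippocampus against 5 of 16826 genes tested (0.0297%), and 2 of 6 members in cortex against 4 of 16238 (0.0246%). The remaining called genes were Nr1d2 in both regions, Per3 in the hippocampus and Gm25911 in the cortex. Nr1d2 and Per3 encode the nuclear receptor REV-ERB beta and a period protein, both of the clock loop. Tef in the cortex kept its call in 14 of 32 fits that left out a single library, with the highest adjusted p (0.188) without frontal cortex Night Ctr1 replicate 2. Hlf in the hippocampus kept it in 19 of 32, with the highest adjusted p (0.134) without hippocampus Night Soci replicate 4. Dbp kept its call in all 32 such fits in each region. In the hippocampus it was lost with library totals in place of TMM scaling, and without all libraries of replicate 2 or 4.

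Since the levels of Dbp separated Soci and Cogn from Ctr0 and Ctr1, the mean of the first 2 conditions was compared with the mean of the other 2, a contrast chosen after the values had been seen. Dbp was 2.05-fold lower in the hippocampus (log2 difference -1.03 ± 0.12, SE, adjusted p = 3.22e-05, 8 libraries against 8) and 2.13-fold lower in the cortex (-1.09 ± 0.12, adjusted p = 7.85e-06). Tef was 1.38-fold lower in the hippocampus (-0.46 ± 0.06, adjusted p = 0.000173) and 1.33-fold lower in the cortex (-0.41 ± 0.06, adjusted p = 0.00478). Hlf was 1.62-fold lower in the hippocampus (-0.69 ± 0.11, adjusted p = 0.00186). In the cortex Hlf had a difference of -0.35 ± 0.14 that did not pass (adjusted p = 0.656). Its night group means there were 12.2 ± 0.756 CPM (SD, n = 4) in Soci and 18.9 ± 4.16 in Cogn. Ctr0 stood at 19.5 ± 8.89 and Ctr1 at 19.4 ± 3.86 CPM, so the Soci mean was the lowest. The Ctr0 mean was raised by replicate 4 at 32.7 CPM. The lowest Ctr0 library (13.5 CPM) was just above the highest Soci library (13.2 CPM). By edgeR cortical Hlf passed in no single pair of conditions at night, so its low Soci mean is a description only. For Soci and Cogn against the controls 6 genes passed in each region, 0.0357% of those tested in hippocampus and 0.037% in cortex. All of them were lower in Soci and Cogn. Beside the members these were Nr1d2, Per3 and Spp1 in the hippocampus, and Nr1d2, Per3, Iigp1 and Ifi47 in the cortex. Spp1 encodes osteopontin, and Iigp1 and Ifi47 are interferon-inducible GTPase genes.

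Single libraries are given next as a description only, since the contrast was chosen from these same values. In the hippocampus, the lowest, median and highest Tef levels were 41.1, 51.0 and 55.1 CPM in the 8 Soci and Cogn libraries and 59.7, 67.8 and 75.1 CPM in the 8 controls. In the cortex they were 47.5, 51.6 and 62.6 CPM against 61.4, 70.2 and 77.9 CPM. Tef did not overlap between the groups in the hippocampus, and overlapped by the highest Cogn library in the cortex. Hlf in the hippocampus ranged over 8.27, 11.4 and 15.5 CPM in Soci and Cogn and over 15.4, 17.8 and 24.9 CPM in the controls, an overlap of 1 library at the edge. Separation without overlap between 8 and 8 night libraries was seen for Dbp and Tef in the hippocampus and for Dbp in the cortex. It was seen for 7 genes in all in the hippocampus (0.0416%) and 9 in the cortex (0.0554%). By day, 2 hippocampal genes were lower and 5 higher in Soci and Cogn without overlap, and 0 and 4 cortical genes, none of them a member.

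The calls of Tef and Hlf in this contrast depended on scaling and on library choice. With library totals in place of TMM scaling, under which the median of all genes in the hippocampus shifted to 0.29 on the log2 scale, Dbp stayed past the threshold in both regions, whereas Tef (-0.17, adjusted p = 0.302, in hippocampus, and -0.36, adjusted p = 0.922, in cortex) and Hlf in the hippocampus (-0.38, adjusted p = 0.0666) did not. Dbp, Tef and Hlf kept these calls in all 32 fits that left out a single library, but without all libraries of 1 replicate number Hlf in the hippocampus was lost without replicate 3 (adjusted p = 0.103) or 4 (0.192), and Tef in the cortex without replicate 1 (0.081), 2 (0.689) or 4 (0.221).

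Markers of other cell types were read at the same contrast. None of the marker genes tested from 8 lists passed the threshold at night in either region. The median log2 difference of the list was -0.70 for astrocytes and -0.44 for neurons in the hippocampus, against 0.01 and 0.21 in the cortex. In the cortex it was -0.50 for endothelial cells (6 of 6 genes below 0) and -0.33 for border macrophages (7 of 7 below 0), against 0.02 for all genes, and in the hippocampus -0.31 and 0.09. In the hippocampus 10 of 10 neuronal, 8 of 8 astrocyte and 6 of 6 endothelial genes lay below 0. So did 8 of 8 choroid plexus, 6 of 7 oligodendrocyte and 4 of 5 tested neutrophil and monocyte genes. Of the border macrophage genes 2 of 7 lay below 0, and of the microglial genes 4 of 8. The median of all genes there was 0.004. The cortical sums of 7 border macrophage genes ran from 122 to 285 CPM in Soci and Cogn and from 185 to 314 CPM in the controls, and those of 6 endothelial genes from 247 to 639 and from 160 to 1261 CPM. The summed level of 8 astrocyte genes ran from 331 to 755 CPM in hippocampal Soci and Cogn libraries and from 349 to 1845 CPM in the controls, without a gap between the groups. With 7 cell type scores (the mean log2 level of each of the 7 lists other than microglia) as covariates, Dbp gave -1.06 in the hippocampus (adjusted p = 1.34e-06) and -1.11 in the cortex (2.6e-05). Tef gave -0.48 (3.99e-05) and -0.39 (0.0752), so that its cortical call was lost, and hippocampal Hlf gave -0.50 (0.0454). The share of Gm26917 in the hippocampus at night had a median of 32.5% in Soci and Cogn and 40.9% in the controls. Without the 4 genes above 1% of counts, the members that passed this contrast in either region still passed.

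Pair by pair, the log2 difference of Dbp between Soci or Cogn and a control at night was below 0 in all 8 pairs, of which edgeR called 5 and DESeq2 8. Against Ctr1 it was lower in Soci by -1.18 ± 0.17 in the hippocampus (adjusted p = 0.00219) and -1.29 ± 0.17 in the cortex (adjusted p = 0.000277). For Cogn against Ctr1 the log2 differences were -1.14 ± 0.17 (adjusted p = 0.00201) and -1.20 ± 0.17 (adjusted p = 0.00123). Against Ctr0, Soci passed in the cortex (-0.98 ± 0.17, adjusted p = 0.0382) and not in the hippocampus (-0.93 ± 0.17, adjusted p = 0.101). The cortical call held in 8 of 32 fits without a single library, with the highest adjusted p (0.368) without frontal cortex Night Ctr0 replicate 2. Cogn against Ctr0 gave -0.89 ± 0.17 in each region and did not pass (adjusted p = 0.221 and 0.185). So the differences from Ctr0 and Ctr1 had the same sign and overlapping errors, and which of them passed is no sign that they differed.

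Tef was lower in Soci than in Ctr1 by -0.51 ± 0.09 in the hippocampus (adjusted p = 0.017) and -0.52 ± 0.09 in the cortex (adjusted p = 0.0239). It was lower in Cogn than in Ctr1 in the hippocampus (-0.57 ± 0.09, adjusted p = 0.00201). Leaving out a single library ended the call of Tef in Soci in 5 hippocampal fits (27 of 32 kept, highest adjusted p 0.135 without hippocampus Night Soci replicate 1) and 3 cortical fits (29 of 32 kept, 0.181 without frontal cortex Night Soci replicate 2). By edgeR no other member passed in any night pair, while DESeq2 also called Hlf in Soci against Ctr1 in both regions and in hippocampal Soci against Ctr0, and Tef in hippocampal Cogn against Ctr0, cortical Cogn against Ctr1 and cortical Soci against Ctr0. Called genes made up 0.0238% for Soci and 0.0178% for Cogn against Ctr1 in the hippocampus, and 0.308% and 0.0123% in the cortex, with 0.00616% for Soci against Ctr0 there. Neither Soci against Cogn nor Ctr0 against Ctr1 gave any called gene at night in either region (0% by edgeR), where 194 to 1111 genes had an unadjusted p under 0.05 and DESeq2 called no member.

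By day the conditions did not separate. Dbp ran from 7.49 to 13.3 CPM over the 16 hippocampal day libraries and from 7.42 to 13.4 CPM over the 16 cortical ones, with Soci and Cogn inside the range of the controls or close to it. The log2 difference of Soci and Cogn from the controls was 0.01 ± 0.12 in hippocampus and 0.05 ± 0.12 in cortex for Dbp, and -0.05 ± 0.06 and -0.02 ± 0.06 for Tef. For Hlf it was 0.08 ± 0.11 and 0.20 ± 0.14. None of the 6 members passed in this contrast (0.00594% of genes in hippocampus, where the gene was Notch4, and 0% in cortex), in the test over 4 conditions (0% in each region), or in any of the 12 day pairs (0% each). In the test over 4 conditions by day, 897 hippocampal and 497 cortical genes had an unadjusted p under 0.05, none of them a member, and DESeq2 called 13 and 1 genes, again without a member.

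The day-night change of the PAR bZIP genes was therefore read within each condition. In Soci, all 3 genes were higher by day in both regions. Dbp rose by 0.58 ± 0.17 on the log2 scale in the hippocampus (adjusted p = 0.0348) and 0.66 ± 0.17 in the cortex (adjusted p = 0.0173). Tef rose by 0.75 ± 0.09 and 0.78 ± 0.09 (adjusted p = 4.76e-06 and 1.07e-05), and Hlf by 1.18 ± 0.15 and 1.08 ± 0.20 (adjusted p = 2.12e-05 and 0.00133). The Dbp call in Soci held in 23 of 32 hippocampal fits without a single library (highest adjusted p 0.141 without hippocampus Day Soci replicate 2) and 4 of 12 alternatives, and in 29 of 32 cortical fits (0.0659 without frontal cortex Night Soci replicate 4) and 6 of 12 alternatives. Day libraries of Soci lay above the night ones without overlap for these 3 genes, as for 7.09% of all genes in the hippocampus and 7.46% in the cortex. In Cogn, hippocampal Dbp (0.73 ± 0.17, adjusted p = 0.0123), Tef (0.73 ± 0.09, adjusted p = 2.68e-05) and Hlf (1.11 ± 0.15, adjusted p = 0.000119) were again higher by day, of which Dbp kept its call in 6 of 12 alternatives. In cortical Cogn libraries Tef rose (0.56 ± 0.09, adjusted p = 0.00122), while Dbp (0.51 ± 0.17, adjusted p = 0.0678) and Hlf (0.29 ± 0.19, adjusted p = 0.396) did not pass by edgeR. DESeq2 called Dbp there too, so this call depended on the tool.

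The controls gave another picture for Dbp. Its day minus night difference was -0.43 ± 0.17 in Ctr0 and -0.35 ± 0.17 in Ctr1 in the hippocampus (adjusted p = 0.0851 and 0.174), and -0.50 ± 0.16 and -0.62 ± 0.16 in the cortex (adjusted p = 0.0716 and 0.0295). By edgeR only cortical Ctr1 passed, and DESeq2 called cortical Ctr0 too. The Ctr1 call held in 28 of 32 fits without a single library, with the highest adjusted p (0.159) without frontal cortex Night Ctr1 replicate 2. Tef rose by day in Ctr0 in both regions (0.36 ± 0.09 and 0.33 ± 0.09, adjusted p = 0.00968 and 0.0329) and in hippocampal Ctr1 (0.30 ± 0.09, adjusted p = 0.0232). Single libraries ended the Tef call in 4 fits of 32 for cortical Ctr0 (highest adjusted p 0.174 without frontal cortex Day Ctr0 replicate 3) and 3 for hippocampal Ctr1 (0.099 without hippocampus Day Ctr1 replicate 1). Of 12 alternatives, the Tef call held in 7 for hippocampal Ctr0, 6 for cortical Ctr0 and 5 for hippocampal Ctr1. In cortical Ctr1 the Tef difference was 0.23 ± 0.09 (adjusted p = 0.138). Hlf did not pass in either control, with log2 differences of 0.36 and 0.39 in the hippocampus and 0.08 and 0.19 in the cortex. Of all genes tested, 8.08% were called day against night in hippocampal Soci, 5.32% in Cogn, 13.2% in Ctr0 and 12.5% in Ctr1. In the cortex the shares were 6.51% in Soci, 5.86% in Cogn, 5.47% in Ctr0 and 4.35% in Ctr1.

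**Figure D2:**
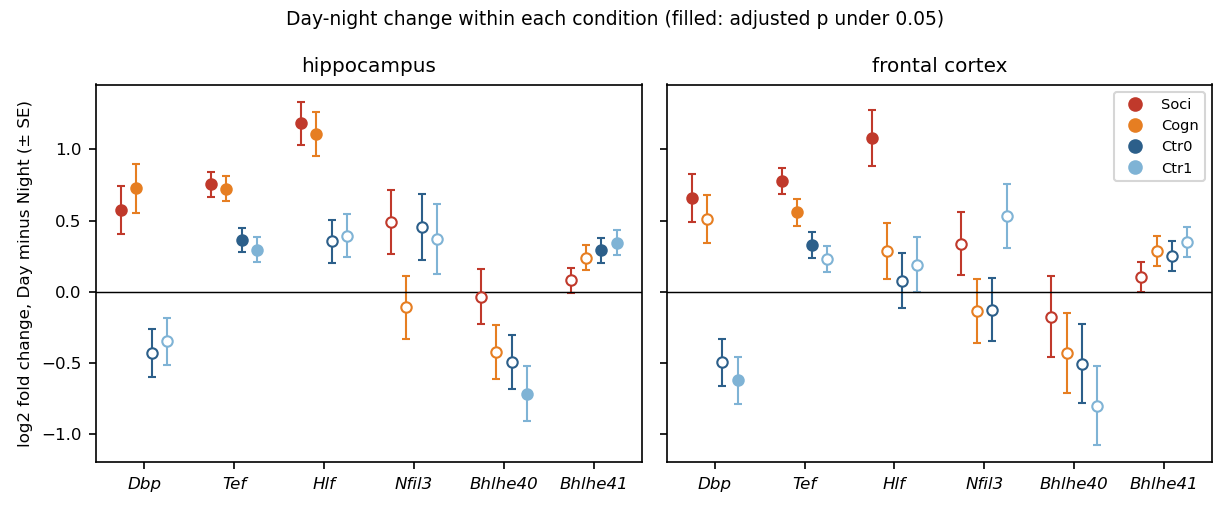
Log2 fold change of Day minus Night with its SE (vertical axis) for the 6 genes in each condition (colours), in hippocampus (left) and frontal cortex (right), with filled points for an adjusted p under 0.05. For Dbp, Soci and Cogn lie between 0.51 and 0.73 and the 2 controls between -0.62 and -0.35.

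Whether the day-night change itself differed was tested over the 4 conditions and for Soci and Cogn against the controls. The second grouping was chosen after the values had been seen. Over the 4 conditions, Dbp was the 1 gene called in the cortex (adjusted p = 0.0461, 0.00616% of genes), and in the hippocampus edgeR called none (0%), with Dbp, Tef and Hlf among 695 genes of unadjusted p under 0.05. DESeq2 called those 3 members in the hippocampus. For Soci and Cogn against the controls, the day-night change of Dbp differed by 1.04 ± 0.17 on the log2 scale in the hippocampus (adjusted p = 0.0192, 0.00594% of genes, Dbp alone) and 1.14 ± 0.17 in the cortex (adjusted p = 0.00276, 0.0246% of genes). Iigp1, Nr1d2 and Gvin1 were the other genes called in the cortex. Tef differed by 0.41 ± 0.09 and 0.39 ± 0.09 (adjusted p = 0.0996 and 0.258) and Hlf by 0.77 ± 0.15 and 0.55 ± 0.19 (adjusted p = 0.0811 and 0.795), and neither passed by edgeR, while DESeq2 called both in the hippocampus and Tef in the cortex. The cortical call over 4 conditions held in 7 of 32 fits without a single library, with the highest adjusted p (0.202) without frontal cortex Day Cogn replicate 4. The hippocampal call for Soci and Cogn against the controls held in 25 of 32, with the highest adjusted p (0.0553) without hippocampus Night Cogn replicate 4.

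Over all conditions, Hlf was 0.72 ± 0.11 higher by day on the log2 scale in the hippocampus and 0.38 ± 0.11 in the cortex (adjusted p = 3.2e-06 and 0.00824), and Tef 0.51 ± 0.07 and 0.45 ± 0.07 (adjusted p = 8.32e-07 and 4.13e-06). Dbp had differences of 0.04 ± 0.15 and -0.10 ± 0.16 (adjusted p = 0.838 and 0.624), with opposite signs in the conditions described above. A day-night difference was common in these libraries: 42.2% of 15527 genes passed in the hippocampus and 41.8% of 14975 in the cortex, so 4 of 6 members in each region stand against a high background. With TMM scaling 3637 hippocampal genes were higher and 2913 lower by day (cortex 3083 and 3183), and with library totals 262 and 4031 (cortex 653 and 3412). Under library totals the median of all genes in the hippocampus lay at -0.14.

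Other cell types moved with this contrast. By day, 8 of 8 choroid plexus genes were lower in the hippocampus (median log2 difference -2.59), with a summed level of 1.65 to 917 CPM by day and 11.5 to 2904 CPM at night. In the cortex 4 of these 8 genes were tested and none passed. Astrocyte genes were lower by day (7 of 8 in each region, medians -0.94 and -1.21), with a summed level of 316 to 516 CPM by day and 331 to 1845 CPM at night in the hippocampus and of 325 to 612 and 276 to 2462 CPM in the cortex. Neuronal genes were lower for 3 of 10 in the hippocampus and 9 of 10 in the cortex (medians -0.29 and -1.24). Oligodendrocyte genes were lower for 6 and 3 of 7 and endothelial genes for 6 and 1 of 6. Border macrophage genes were higher for 7 and 6 of 7 (medians 0.89 and 0.57), at 197 to 424 CPM by day and 99.5 to 220 CPM at night in the hippocampus. Microglial genes were higher for 7 and 4 of 8 (medians 0.29 and 0.23), and of the neutrophil and monocyte genes 1 of 3 tested was higher in the hippocampus and none in the cortex. With 7 cell type scores as covariates, Hlf was the only member still called day against night in each region (1.08 and 0.66 on the log2 scale), among 36 genes in the hippocampus and 1905 in the cortex. Tef then gave 0.65 ± 0.16 and 0.26 ± 0.14 (adjusted p = 0.086 and 0.217).

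Nfil3, which competes with the PAR bZIP proteins at the D-box, was the least abundant member, with group means of 1.89 to 3.53 CPM. Its highest group mean was in hippocampus Night Cogn (3.55, 3.09, 3.76 and 3.70 CPM) and its lowest in hippocampus Night Ctr1 (2.79, 1.59, 2.24 and 0.931 CPM). Those 2 groups did not overlap, as for 1.01% of genes with Cogn above Ctr1, yet the log2 difference of 0.86 ± 0.23 did not pass over all genes (adjusted p = 1.00, unadjusted p = 0.000906). For Soci and Cogn against the controls at night, Nfil3 gave 0.41 ± 0.16 in the hippocampus and 0.16 ± 0.16 in the cortex (adjusted p = 0.551 and 0.827). Day against night it gave 0.27 ± 0.14 and 0.15 ± 0.11 (adjusted p = 0.113 and 0.318). No step between neighbours in the order of its 16 group means went beyond the spread, and no comparison called Nfil3.

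Bhlhe40 fell by day. Its 16 hippocampal libraries read a lowest, median and highest level of 5.38, 7.07 and 9.92 CPM by day and 6.15, 9.79 and 14.6 CPM at night. The cortical ones read 3.68, 6.46 and 8.0 CPM by day and 3.79, 8.72 and 16.6 CPM at night. Day and night overlapped in both regions, and the log2 difference was -0.45 ± 0.11 in the hippocampus (adjusted p = 0.00177) and -0.51 ± 0.15 in the cortex (adjusted p = 0.00699). The call was lost without replicate 1 in the hippocampus (adjusted p = 0.0512) and without replicate 2 in the cortex (0.0532). With the 7 cell type scores the difference was -0.04 ± 0.19 in the hippocampus (adjusted p = 0.964) and -0.18 ± 0.22 in the cortex (0.609). Within conditions only hippocampal Ctr1 passed (-0.72 ± 0.19, adjusted p = 0.0163, and 0.0716 without hippocampus Night Ctr1 replicate 4). At night Bhlhe40 was at 9.52, 6.68, 6.51 and 6.15 CPM in hippocampal Soci libraries and 11.8, 12.7, 9.88 and 14.6 CPM in Ctr1, without overlap (2.05% of genes had Ctr1 above Soci), but this difference (-0.79 ± 0.19) did not pass over all genes (adjusted p = 0.262). For Soci and Cogn against the controls at night it gave -0.42 ± 0.13 in the hippocampus and -0.34 ± 0.19 in the cortex (adjusted p = 0.548 and 0.716).

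Bhlhe41 rose by day by a smaller amount at a much higher level. The lowest, median and highest levels in the hippocampus were 128, 144 and 161 CPM by day and 99.1, 126 and 147 CPM at night, and in the cortex 110, 129 and 148 CPM by day and 89.4, 109 and 131 CPM at night. The log2 difference was 0.23 ± 0.04 in the hippocampus (adjusted p = 0.000108) and 0.24 ± 0.05 in the cortex (adjusted p = 0.000726). It was 0.06 (adjusted p = 0.765) and 0.16 (adjusted p = 0.132) with library totals, so its call rested on the scaling. With the 7 cell type scores it was 0.13 (adjusted p = 0.603) and 0.32 (0.0559). Within conditions it passed in hippocampal Ctr0 (0.29 ± 0.09, adjusted p = 0.0319) and Ctr1 (0.35 ± 0.09, adjusted p = 0.0124). A single library ended the Ctr0 call in 11 of 32 fits (highest adjusted p 0.142, without hippocampus Day Ctr0 replicate 4) and the Ctr1 call in 1 (0.0616, without hippocampus Night Ctr1 replicate 4). Of 12 alternatives, the Ctr0 call held in 3 and the Ctr1 call in 7. By DESeq2 Bhlhe41 also passed in cortical Ctr1. The 2 Bhlhe genes, both repressors at E-boxes, thus had day-night differences of opposite sign in each region.

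**Figure D3:**
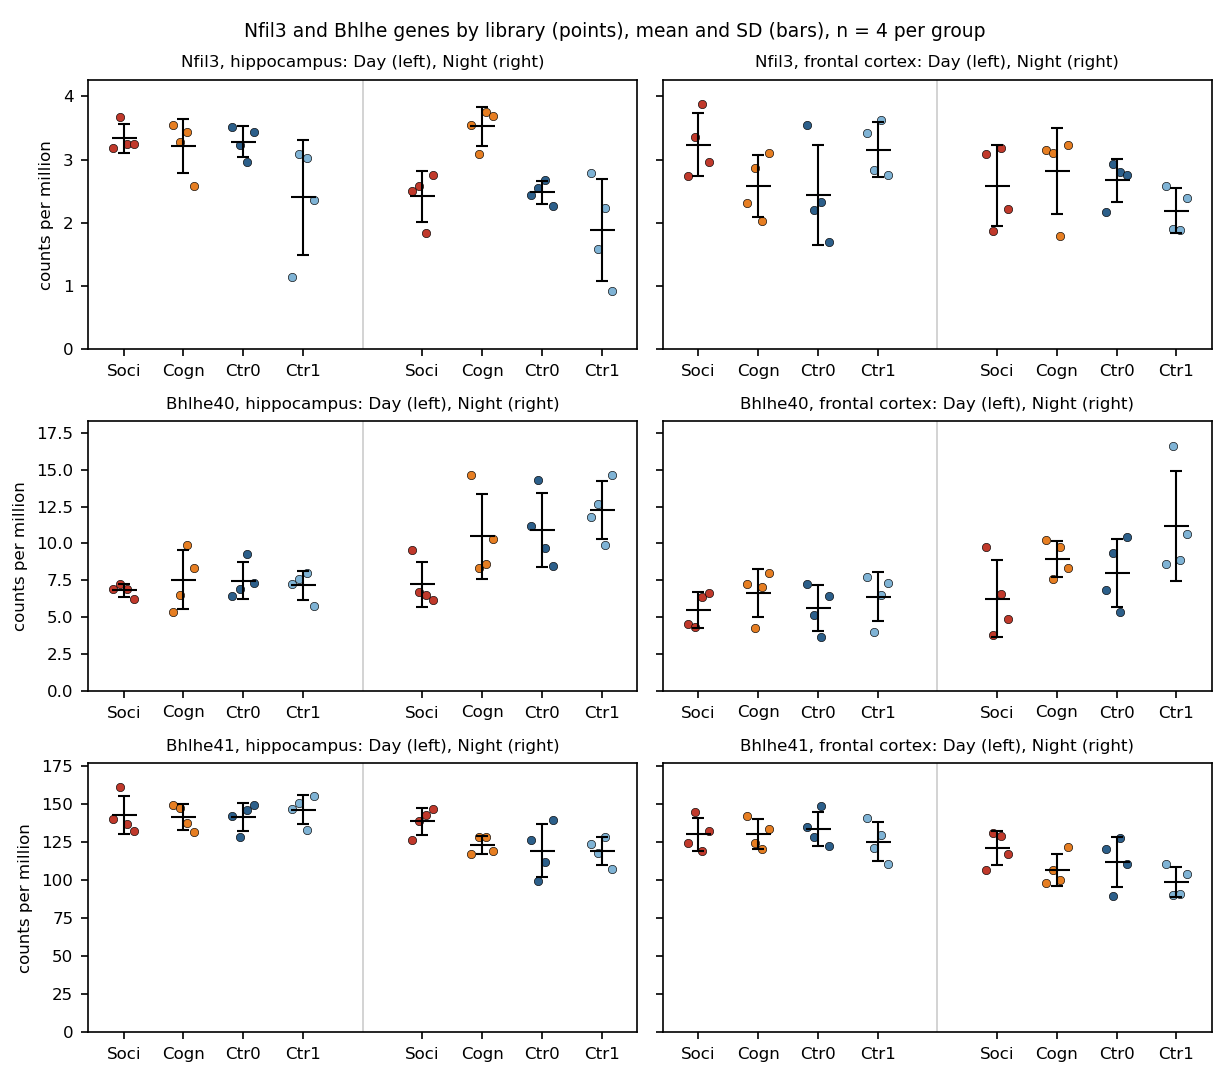
Levels of Nfil3, Bhlhe40 and Bhlhe41 in CPM (vertical axis, from 0) in each library (points), with group mean and SD (bars, n = 4), laid out by phase, condition and region. Bhlhe40 reaches 16.6 in a night control library and stays under 10 in all day libraries, and Bhlhe41 lies between 89.4 and 161 throughout.

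In the main fit, Bhlhe41 was the 1 member that differed between the regions. It was 0.17 ± 0.03 higher on the log2 scale in the hippocampus over all conditions and phases (adjusted p = 0.000308), when 16.6% of 16069 genes passed, and 0.19 ± 0.05 higher at night (adjusted p = 0.00362, 13.9% of genes). By day the difference was 0.14 ± 0.05 (adjusted p = 0.199). Bhlhe40 was 0.25 ± 0.10 higher in the hippocampus (adjusted p = 0.0597), and Dbp, Tef, Hlf and Nfil3 differed by -0.08 to 0.06. In this contrast 8 of 8 choroid plexus genes were higher in the hippocampus (median 2.93), and 3 of 7 border macrophage genes, 3 of 10 neuronal genes and 2 of 8 microglial genes were lower. Of the astrocyte genes 1 was higher and 3 lower, and with the 7 cell type scores as covariates Bhlhe41 no longer passed. TMM scaling gave 1675 genes higher and 992 lower in the hippocampus, and library totals 854 and 1685. The main fit took the 64 libraries as independent. The methods describe both regions as dissected from the removed brains, so the regions may share animals. With a block of phase, condition and replicate number, 3 members differed between the regions. The day-night change did not differ between regions for any member (1.19% of genes passed), none had an unadjusted p under 0.05, and DESeq2 called 262 genes without a member.

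The other genes of the clock loop were read from a list of 14. Day against night, 8 of 13 tested passed in the hippocampus and 9 in the cortex. Higher by day were Cry1 (1.29 ± 0.09 and 1.25 ± 0.09), Per2 (1.12 ± 0.14 and 1.27 ± 0.12), Per3 (0.92 ± 0.10 and 0.76 ± 0.11), Per1 (0.58 ± 0.16 and 0.41 ± 0.17) and Clock (0.14 ± 0.06 and 0.11 ± 0.04), 4 inhibitors of the loop and an activator. Lower by day were Nr1d1, the REV-ERB alpha gene (-1.87 ± 0.21 and -1.84 ± 0.22), Rorb (-0.91 ± 0.22 and -1.36 ± 0.30) and the activator Arntl (-0.54 ± 0.09 and -0.64 ± 0.09), and in the cortex Npas2 (-0.71 ± 0.17). The median difference of the list was 0.15 and 0.11, against 0.02 and -0.02 for all genes tested. Per2 was higher (0.29 ± 0.09) and Rorb lower (-0.71 ± 0.19) in the hippocampus than in the cortex.

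At night, Nr1d2 and Per3 were the 2 list genes that passed for Soci and Cogn against the controls. Nr1d2 was lower by -0.62 ± 0.08 in the hippocampus and -0.61 ± 0.09 in the cortex (adjusted p = 0.000173 and 0.00358). Its lowest, median and highest night levels were 28.5, 33.4 and 41.5 CPM in hippocampal Soci and Cogn libraries and 42.4, 50.6 and 62.0 CPM in the controls, and 30.6, 34.3 and 40.3 against 45.4, 53.4 and 65.3 CPM in the cortex, with no overlap in either region. Per3 was lower by -0.59 ± 0.09 and -0.62 ± 0.11 (adjusted p = 0.00186 and 0.0142). The list median was -0.31 and -0.03, against 0.004 and 0.02 for all genes, and by day no list gene passed. Of the 4 genes held to be PAR bZIP targets, Pdxk (pyridoxal kinase), Por (cytochrome P450 reductase) and Alas1 (the first enzyme of heme synthesis) were tested, and Nr1i3 was too low. None passed at night for Soci and Cogn against the controls, with log2 differences in hippocampus and cortex of -0.30 ± 0.11 and -0.20 ± 0.10 for Pdxk, -0.11 ± 0.07 and 0.06 ± 0.09 for Por, and -0.06 ± 0.06 and -0.09 ± 0.07 for Alas1. Por was higher by day in both regions (0.14 ± 0.05 and 0.27 ± 0.06, adjusted p = 0.0393 and 0.000773), and Pdxk by day in cortical Soci (0.53 ± 0.15, adjusted p = 0.0304).

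**Figure D4:**
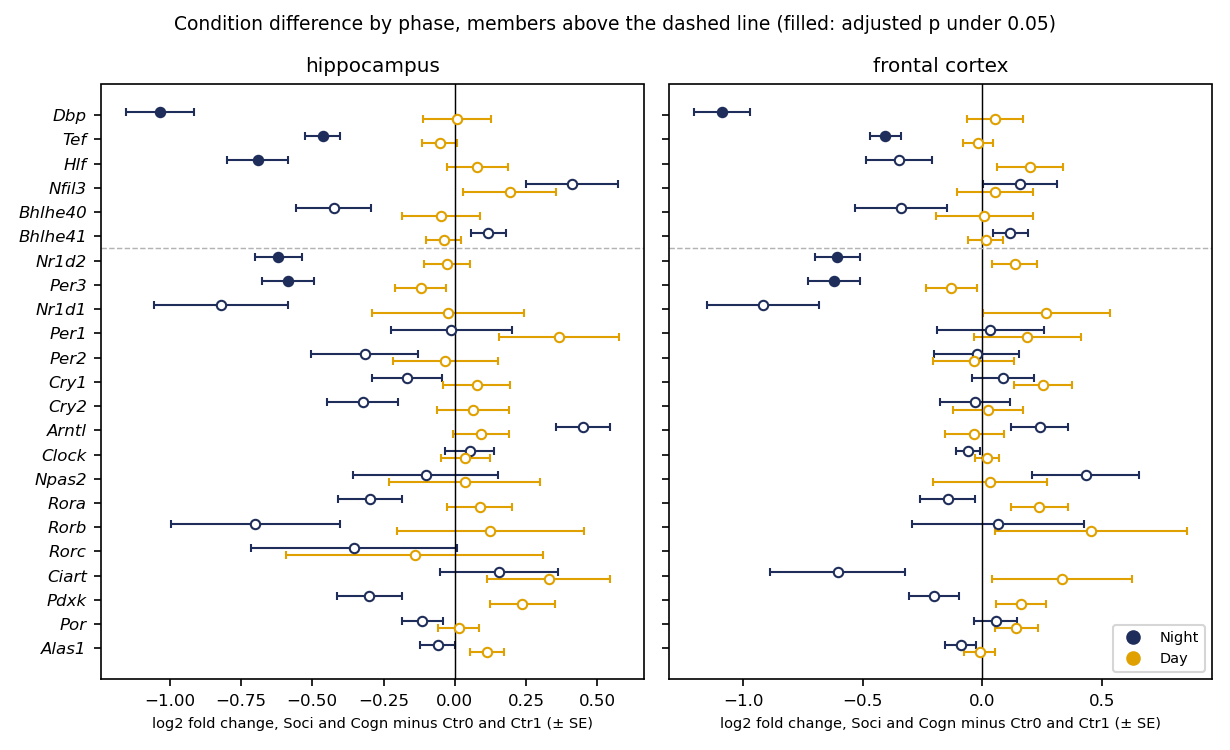
Log2 fold change of Soci and Cogn minus Ctr0 and Ctr1 with its SE (horizontal axis) at Night and by Day for the 6 genes (above the dashed line), the other clock genes and the tested PAR bZIP targets, in hippocampus (left) and frontal cortex (right), with filled points for an adjusted p under 0.05. At night Dbp lies at -1.03 and -1.09, and Tef, Nr1d2 and Per3 are filled in both regions, while no member or list gene is filled by day.

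Over the 16 group means, the genes most alike to each member were ranked by Pearson's r of mean log2 CPM among 10934 genes, as a description of groups that share libraries and scaling. Nr1d2 (r = 0.87), Ifit3 (0.79) and Gbp2 (0.71) were nearest to Dbp. Per3 (0.96) was nearest to Tef, and Mib1 (0.89) and Per3 (0.88) were near to Hlf. Nfil3 was nearest to Cnot11 (0.77), Prr13 (0.76) and Oser1 (0.76), Bhlhe40 to Pam, Nfib and Pcdh1 (0.96 each), and Bhlhe41 to Zyx (0.91), Myc (0.90) and Orai1 (0.89).

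Within groups, libraries that were high in 1 member were compared with the others as deviations of log2 CPM from the group mean over the 64 libraries, for 15 pairs of members. Dbp and Bhlhe40 deviated together (Pearson's r = 0.469, permutation p = 0.0015, adjusted p = 0.0112, Spearman's rho = 0.446, permutation p = 0.00153), as did Tef and Hlf (r = 0.425, permutation p = 0.00366, adjusted p = 0.0183, rho = 0.405, permutation p = 0.00319). Bhlhe40 and Bhlhe41 deviated in opposite directions (r = -0.467, permutation p = 0.00111, adjusted p = 0.0112, rho = -0.475, permutation p = 0.00072). Without the 2 libraries farthest from the median, r was 0.450, 0.391 and -0.422, and the call of Tef and Hlf was lost. In hippocampus and cortex alone r was 0.524 and 0.447 for the first pair, 0.333 and 0.494 for the second, and -0.581 and -0.407 for the third. With library totals the third r was -0.108. Of 9 alternatives, the first pair kept its call in 5, the second in 2 and the third in 4, and the second was lost in each region alone and without any 1 replicate number. Dbp and Tef, both lower in Soci and Cogn at night, did not pass within groups (r = 0.210, rho = 0.232, permutation p = 0.125 and 0.0959, adjusted p = 0.428 and 0.288).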

How the data were processed

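Total RNA of 64 microglia libraries was depleted of ribosomal RNA and sequenced single-end. The authors mapped reads with STAR 2.7.3a to GRCm38.p5, per the submitters' notes, and assigned them to genes with featureCounts (Subread 2.0.0). The strand and multi-mapping settings are not given in the sources used here, so overlapping and antisense genes may share reads. The authors deposited raw read counts for each gene, and only these were used. Of the 49671 identifiers, 49412 matched GENCODE M21.

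Differential expression was tested with edgeR 4.0.16 (R 4.3.3, limma 3.58.1) by quasi-likelihood F tests after TMM scaling and filterByExpr, with Benjamini-Hochberg adjustment over all genes tested and a threshold of 0.05. Day against night used 2 phase means in each region (32 libraries), the conditions used 8 phase and condition means, and the regions used 4 means over 64 libraries. The SE is the log2 fold change over the square root of F. CPM used TMM factors over 64 libraries, with a prior count of 2 on the log2 scale. Correlations used 100000 permutations within groups. No 2 libraries were identical, and replicates differed by more than sampling noise in all 96 pairs (chi-square per degree of freedom of at least 7.65).

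The fits were tested on simulated data with 200 genes changed 2-fold. For a 2-fold night difference of Soci and Cogn from the controls in the hippocampus 192 were recovered among 16590 genes. For the difference of day-night changes 147 were.

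The members and lists were chosen with earlier results of these data known. Named were all 6 members in every comparison, the genes past the threshold among 14 other clock genes, 4 PAR bZIP target genes, and the 3 genes most alike to each member, of which some are not reported here. Genes called in the same comparisons as the members (Spp1, Iigp1, Ifi47, Gvin1, Gm25911, Notch4) were named after their values were seen. The contrast of Soci and Cogn against the controls and the fits without single libraries were added after the data were seen. Alternatives were library totals, median-of-ratios scaling, DESeq2 1.42.0, no count filter, a replicate block, leaving out replicates, the genes over 1% of counts or the libraries of largest total, and 7 cell type scores as covariates. Promoter windows came from RefSeq, GRCm38.p6.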

Additional observations from a re-analysis of the deposited data

Results flagged for a closer look

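Among 96 sets of 4 libraries (6 genes in 16 groups), 5 held a library far from the other 3 by Dixon's criterion, where chance gives about 4.8. Tef in frontal cortex Day Cogn replicate 1 was at 70.5 CPM, with the other libraries at 83.9 to 86.2. Hlf in hippocampus Night Ctr1 replicate 3 was at 20.9 CPM against 17.4 to 17.9. Nfil3 was at 3.68 CPM in hippocampus Day Soci replicate 2 against 3.18 to 3.25, and at 1.80 CPM in frontal cortex Night Cogn replicate 3 against 3.11 to 3.23. Bhlhe40 in hippocampus Night Soci replicate 1 was at 9.52 CPM against 6.15 to 6.68.

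The day-night change of Dbp passed the threshold for a difference between conditions in some tests. The adjusted p of edgeR's test was 0.0461 over the 4 conditions in the frontal cortex, a call kept in 3 of 12 alternatives. In the hippocampus that test did not pass. For Soci and Cogn against the controls, a grouping chosen after the values had been seen, it was 0.00276 in the frontal cortex and 0.0192 in the hippocampus. These calls were kept in 9 and 6 of 12 alternatives. The hippocampal one was lost without any 1 of the 4 replicate numbers.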

How the results depend on the processing

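Of 599 recomputed values of single members and member pairs, over 50 results that passed the threshold, 427 stayed past it, 172 did not and none changed sign. The night difference of Dbp between Soci and Cogn and the controls, a contrast chosen after the values had been seen, passed in all 12 alternatives in both regions. Its log2 differences ran from -1.07 to -0.76 in the hippocampus and from -1.22 to -1.01 in the frontal cortex. Over the 4 conditions at night, Dbp passed in all 12 alternatives in the frontal cortex and in 9 of 12 in the hippocampus. It was lost there with library totals and without replicate 2 or 4 (edgeR's adjusted p up to 0.317). No alternative called a member for any condition comparison by day.

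With library totals alone, 0 members passed at night over 4 conditions in the hippocampus (3 with TMM) and 1 in the cortex (2). For Soci and Cogn against the controls at night 1 passed in each region (3 and 2), and for the difference in day-night change 0 in each (1 and 1, and 0 over 4 conditions in the cortex). Day against night within conditions gave 3 member calls in the hippocampus (11) and 2 in the cortex (6), the cortical night pairs 2 (4), and 5 member pairs correlated (3). DESeq2 gave 9 and 8 member calls in the night pairs of hippocampus and cortex (4 and 4), 3 members for the day-night change over 4 conditions in the hippocampus (0), and 3 and 2 for that of Soci and Cogn against the controls (1 and 1). Adjusting over all 12 pairs of a region left 2 member calls in the cortical night pairs. Without the libraries of largest total, 1 member passed at night over 4 conditions in the cortex, the day-night change gave 0 members over 4 conditions in the cortex and 0 for Soci and Cogn against the controls in the hippocampus (1 in the cortex), and the hippocampal night pairs gave 2 member calls. Without the genes over 1% of counts, the cortical day-night change over 4 conditions gave 0 members.

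With 7 cell type scores, 1 member passed day against night in each region (4 and 4), and within conditions 4 calls remained in number in the hippocampus and 2 in the cortex. In the cortex 1 member passed at night over 4 conditions, 1 for Soci and Cogn against the controls and 0 for the day-night change over 4 conditions. In the hippocampus 1 member passed for that change and the night pairs gave 7 calls, and between regions 0 members passed. With the replicate block, 3 members differed between regions (Tef and Bhlhe40 beside Bhlhe41) and 0 had a day-night change that differed over 4 conditions in the cortex. The labels give the numbers no shared animal or batch, so the numbers were not taken to pair the libraries, and the main fits leave them out. The correlation of same-numbered libraries exceeded 0.1 in 57 of 112 hippocampal and 55 of 112 cortical pairs, which does not decide whether they share a batch. As a hint from the data, 19 of 32 hippocampal and 12 of 32 cortical libraries were most alike to one of their own number, with a median correlation of 0.10 and 0.09 against -0.05 and -0.04 for other numbers. Across regions, 11 of 32 were most alike to their own number, with a median correlation of -0.02 against -0.05. Whether the number marks a batch was not tested. In the cortex alone 0 member pairs correlated.

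Leaving out a replicate number or a single library gave these ranges of members or member calls. At night over 4 conditions the count was 0 to 3 in the hippocampus and 1 to 2 in the cortex, and in the cortex 1 to 2 for Soci and Cogn against the controls. Night pairs gave 0 to 6 in the hippocampus and 1 to 4 in the cortex. Day against night within conditions gave 4 to 12 and 3 to 8. The day-night change gave 0 to 1 over 4 conditions in each region, and 0 to 2 in the hippocampus and 0 to 1 in the cortex for Soci and Cogn against the controls. Correlated pairs numbered 0 to 2.

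Over all genes, alternatives gave 36 to 7356 calls for day against night in the hippocampus (6550) and 1905 to 6549 in the cortex (6266), the lowest with 7 cell type scores, and 1322 to 3518 between regions (2667). They gave 15 to 1747 for the day-night change between regions (191), 0 to 12 at night over 4 conditions in the hippocampus (5) and 1 to 135 in the cortex (4), 2 to 12 and 1 to 18 for Soci and Cogn against the controls (6 and 6), and 0 to 13 and 0 to 1 by day over 4 conditions (0 and 0). The day-night change over 4 conditions gave 0 to 12 and 0 to 9 (0 and 1). The cause of these shifts was not tested. Counts of 10 to 267 for Nfil3 limit what could be detected for it.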
